A study of Mus musculus with 14 samples.

Results

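Accessible chromatin of mouse hippocampal neurons collected 5 days after fear conditioning (Late, 4 libraries) was compared with that of neurons collected on the day of conditioning (Early, 3 libraries). The comparison was made over 172010 of the 191271 regions of 1 common table, which gives an RPKM value for each region and library, that is its reads divided by the region's length and by the library's read total. Regions entered if their mean over all 14 libraries of the series was at least 0.83 RPKM. Regions of the unplaced sequence chrUn_random (99) and the 8 regions that exceeded 40 RPKM in any library were left out. At the edge of this rule, the lowest mean kept was 0.83001 RPKM and the highest mean left out 0.829996 RPKM. The highest single value kept was 33.7 RPKM, and the lowest maximum among the regions left out as too high was 41.8 RPKM.

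All mice were ArcCreERT2 animals crossed to a R26R-STOP-floxed reporter of yellow fluorescent protein (eYFP), with the genotype given as +/+. All were kept in the dark for 24 h, received 4-hydroxytamoxifen 1 h before conditioning and got a foot shock on day 0. Early mice were collected on day 0 without recall, 1.5 to 2 h after the task per the labels' protocols. Late mice returned to the dark for 48 h, then to a normal light cycle, and were collected on day 5 without recall. The other libraries of the series are Basal (n = 4), which carry the same treatment label as Early, and Reactivated (n = 3), with recall on day 5 and collection on days 5, 6 and 7. They served here for the estimate of spread and as levels to set beside. Hippocampi of 10 to 12 mice were pooled to reach 10000 nuclei per condition, and the series states 3 biological replicates where 4 Late libraries are present. The labels do not say which mice a library came from, so the p-values below measure the spread between libraries, part of which can be technical.

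In ATAC-seq a transposase cuts and tags DNA that is not covered by nucleosomes, so the reads of a region rise with how open its chromatin is. Promoters and enhancers, the regulatory sequences of genes, are typically found in such regions. In the hippocampus, neurons that fire during learning switch on immediate early genes such as Arc, whose promoter drives the tamoxifen-dependent Cre recombinase of these mice, and the recombined reporter then marks them for good. Nuclei were sorted with antibodies to NeuN, a protein of neuronal nuclei, to Arc and to GFP, which detects the reporter. The labels do not say which sorted nuclei make up each library. Positions are on the mm9 build. Neither gene models nor genome sequence of that build were used here, so regions are given by position, neuronal marker genes were not checked, and no sequence is printed.

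The Late libraries stood apart from all others in ways that do not depend on single regions. Their recovered read totals were 46134255 to 47375214, against 54257748 to 54261752 in Early. The 99 chrUn_random regions held more than 1 read in 69 to 72 cases in each Late library and in 0 cases in the others. The 8 regions left out as too high were 1.48 to 8.99 times higher in Early than in Late. Reads in regions, 8562480 to 9484042 in Late, lay inside the range of Early (7499319 to 15075082). The totals, the chrUn_random reads and the low values at high regions go with the group, so their part in any difference between Late and Early cannot be told apart from that of time. Early replicate 2 stood apart within its own group: it was the highest of the 3 Early libraries in 74.3% of regions (41.9% after division by the library median). Across regions its log2 values correlated with those of the Late libraries at r = 0.633 to 0.689, where Early replicate 3 had 0.436 to 0.488 and Early replicate 1 had 0.233 to 0.315. Regions are not independent replicates, and these correlations are descriptions.

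No difference in the overall level of accessibility was shown between Late and Early neurons, while the Late libraries were more alike and had lower top values. The median RPKM of the kept regions was 1.07, 1.84 and 1.30 in Early replicates 1, 2 and 3 and 1.38, 1.42, 1.51 and 1.45 in Late replicates 1 to 4. All Late libraries thus lay inside the Early range (difference of means 0.0376 RPKM, 2-sided exact permutation p = 0.857). Reads in regions made up 13.8%, 27.8% and 18.1% of the total in Early and 18.4%, 19.0%, 20.02% and 19.2% in Late (difference -0.749 percentage points, exact permutation p = 0.857). In both measures the overlap rested on Early replicate 2, as every Late library exceeded Early replicates 1 and 3. Without Early replicate 2 the differences were 0.258 RPKM and 3.19 percentage points. Without Early replicate 1 they were -0.131 RPKM and -3.79 percentage points. The level that only the top 1% of regions passed, in units of the library's own median, was 3.30, 4.53 and 3.71 in Early and 2.90, 2.85, 2.82 and 2.80 in Late. The 2 groups did not overlap in this measure, which was 3.84 ± 0.624 in Early (SD, n = 3) and 2.84 ± 0.0455 in Late (n = 4; exact permutation p = 0.0571, adjusted over 4 library measures 0.229). For 3 against 4 libraries 0.0571 is the smallest p that the exact test allows. The interquartile range of the log2 values was 0.708 in Early and 0.628 in Late on average (exact permutation p = 0.229). The median over regions of the SD among replicates was 0.431 in Early and 0.216 in Late on the log2 scale, and 0.292 and 0.208 after each library was divided by its median.

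**Figure D1:**
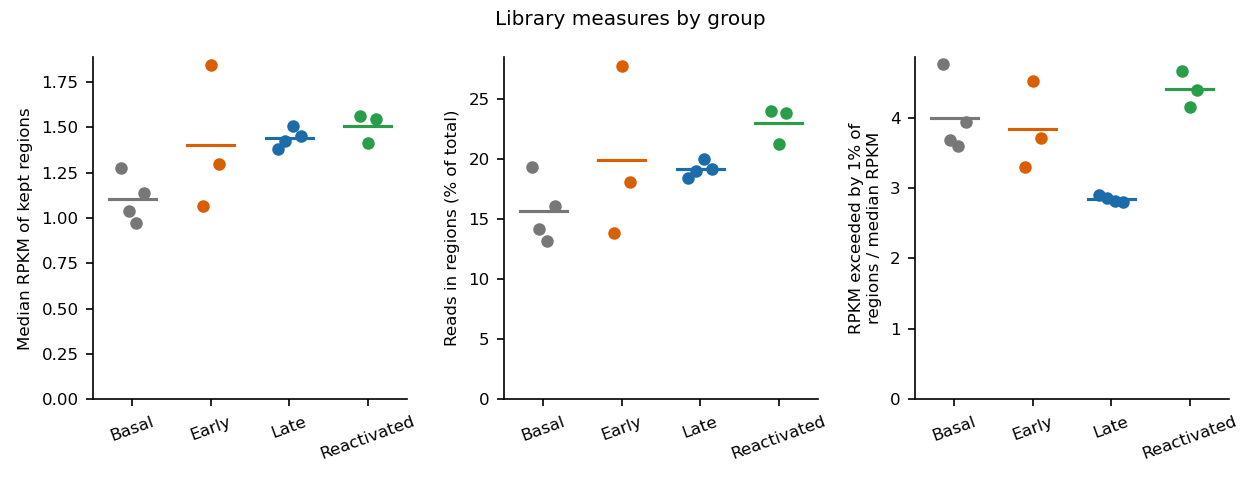
Each point is 1 library: median RPKM of the 172010 kept regions (left), reads in regions as a percentage of the library total (middle) and the level passed by the top 1% of regions in units of the median RPKM (right). Lines are group means. The 4 Late libraries lie inside the Early range in the first 2 panels, and in the third they lie between 2.80 and 2.90, below all other libraries.

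Few single regions passed the threshold between Late and Early, and of those that passed on each scale more were higher than lower in Late. On the log2(RPKM + 0.5) scale, 692 of the 172010 regions passed (0.402%; limma, Benjamini-Hochberg adjusted p under 0.05), 524 of them higher (0.305%) and 168 lower (0.0977%) in Late. After division of each library by its median 1253 passed (0.728%), 844 higher (0.491%) and 409 lower (0.238%). The calls of the 2 scales shared 461 higher regions, which is 88.0% of the first list and 54.6% of the second, and 124 lower regions, 73.8% and 30.3%. No region was called in opposite directions. Before adjustment 12.8% of regions had p under 0.05 (limma) as deposited and 17.1% after division. The low count of calls therefore does not show that few regions differ. Over all regions the log2 fold change had a median of 0.02 as deposited and -0.02 after division, with 5% of regions below -0.58 and 5% above 0.60 on the deposited scale. The called rises had log2 fold changes of 0.89 to 2.13 and the called falls of -0.87 to -1.77, beside a median standard error of 0.26.

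These counts depended on single libraries. Without Early replicate 1, 2 or 3 the number higher in Late was 158, 8552 or 138 and the number lower 42, 2277 or 22. Without Late replicate 1, 2, 3 or 4 it was 331, 171, 227 or 185 higher and 73, 38, 46 or 43 lower. With the 4 Late libraries averaged to 1 sample 0 regions passed (limma), and 3173 had p under 0.05 before adjustment. After division by the median the majority of calls turned in 2 of these fits: 548 regions were higher and 665 lower without Early replicate 1, and 3103 higher and 4973 lower without Early replicate 2. All Late libraries lay above all Early libraries in 8959 regions (5.21%) and below them in 7903 (4.59%). With all libraries, 13856 divided values (8.06%) had Late above Early without overlap and 12427 (7.22%) below.

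The 524 regions called higher had a low level in every Early library. Their median was 0.549, 0.701 and 0.621 RPKM in Early replicates 1 to 3 and 1.98, 2.34, 2.13 and 2.28 RPKM in Late replicates 1 to 4, which describes the contrast they were chosen by. In Basal, which the choice did not use as a contrast, the median was 0.923 to 1.03 RPKM, and in Reactivated 1.04 to 1.20 RPKM. The medians of both other groups thus stood between those of Early and Late. Region by region, the Basal mean lay between the Early and Late means in 430 of the 524 and the Reactivated mean in 356. The Basal mean was nearer to Early than to Late in 358 (68.3%, against 59.1% of all kept regions). The Reactivated mean was nearer to Early in 277 (52.9%, against 39.8%). All 4 Late libraries exceeded all 10 other libraries in 278 of the 524 regions (53.1%, against 0.688% of all kept regions). All 3 Early libraries lay below the 11 others in 148 (28.2%, against 0.951%). The shares over all regions include regions with no difference between the groups, so the gap in part follows from the choice.

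In the 168 regions called lower, the medians of Basal and Reactivated again stood between those of Early and Late. By region, the Basal mean lay between the Early and Late means in 125 and the Reactivated mean in 148. The median of these regions was 2.27, 1.91 and 1.99 RPKM in Early and 0.636, 0.622, 0.583 and 0.655 RPKM in Late. Basal, at 1.65 to 1.74 RPKM, stood near Early, and Reactivated, at 0.887 to 1.00 RPKM, near Late. The Basal mean was nearer to Early than to Late in 140 of the 168 (83.3%, against 59.1% of all kept regions), and the Reactivated mean was nearer to Late in 125 (74.4%, against 60.2%). The shares over all regions again include regions with no difference between Early and Late, so they are no like measure for the 168. These regions rest on few reads, a median of 7 to 8 per Late library and 27 to 34 per Early library.

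**Figure D2:**
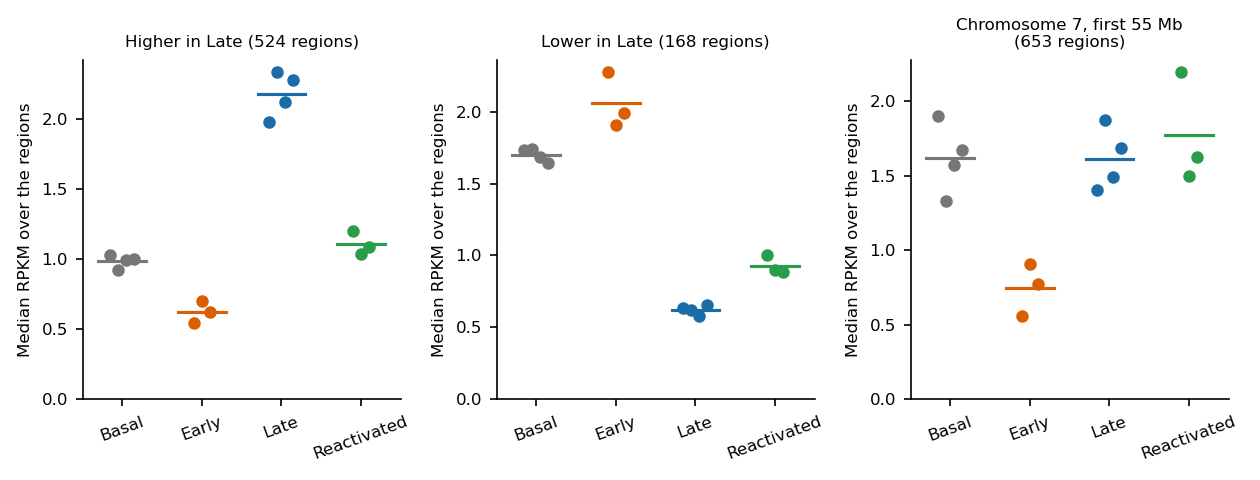
Each point is the median RPKM of 1 library over the 524 regions called higher in Late (left), the 168 called lower (middle) and the 653 kept regions in the first 55 Mb of chromosome 7 (right), with lines at group means. Basal and Reactivated lie between Early and Late on the left. In the right panel the 3 Early libraries, at 0.563 to 0.908 RPKM, lie below the 11 others.

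The strongest rises were spread over several chromosomes. Early levels at chr5:9716395-9716607, a region of 212 bases, were 1.30, 0.869 and 0.174 RPKM, and Late levels were 3.76, 4.19, 4.38 and 4.12 RPKM. Late was also above Basal (1.04 to 1.74 RPKM) and Reactivated (0.587 to 0.956 RPKM) in every library, and above Early by 1.96 ± 0.27 SE on the log2 scale (limma, adjusted p = 0.00162). The 654 bases of chr17:81941615-81942269 gave 0.930, 0.564 and 0.676 RPKM in Early and 4.05, 4.31, 3.78 and 4.65 RPKM in Late. This region had the most reads of the 8 largest rises, 20 to 33 per Early and 117 to 143 per Late library, and its log2 fold change was 1.95 ± 0.24 SE (limma, adjusted p = 0.00132). Basal and Reactivated, at 0.620 to 1.27 and 0.423 to 1.21 RPKM, overlapped the Early values there. At both regions Late was above all 10 other libraries.

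At other rises Early was below all 11 other libraries. At chr7:28017861-28018262 and chr1:179105618-179105881 Late was also above every library of the other groups. Region chr7:28017861-28018262 (401 bases) had 0.184, 0.919 and 0.460 RPKM in Early against 3.12, 4.05, 3.05 and 2.81 RPKM in Late (1.93 ± 0.28 SE on the log2 scale, limma, adjusted p = 0.00182). Its Basal libraries, at 1.52 to 2.11 RPKM, and its Reactivated libraries, at 1.06 to 2.79 RPKM, all exceeded the Early ones. The short region chr7:148748905-148749022 (117 bases) went further: Early had 0.315, 0.158 and 0.630 RPKM and Late 1.47, 2.22, 1.98 and 3.64 RPKM, inside or below the 2.20 to 3.94 RPKM of Basal and the 2.21 to 3.95 RPKM of Reactivated. It rests on 1 to 4 reads per Early library (log2 fold change 1.69 ± 0.29 SE, limma, adjusted p = 0.00779), and it was not called when reads were analysed with voom weights. Region chr1:179105618-179105881 had 0.561, 0.491 and 0.140 RPKM in Early and 2.37, 3.46, 2.73 and 2.99 RPKM in Late (1.94 ± 0.25 SE on the log2 scale, limma, adjusted p = 0.00132). It too stood in Basal and Reactivated, at 0.981 to 2.24 RPKM, above all Early libraries.

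The remaining rises of this list, chr8:16837504-16837864, chr17:87152652-87152876 and chr3:55488881-55489349, had log2 fold changes of 1.87, 1.83 and 1.72. At the last, Early had 0.473, 0.827 and 0.315 RPKM, Late 2.81, 2.55, 3.02 and 3.09 RPKM, and Reactivated 1.34 to 1.94 RPKM, between the 2 groups. These 8 regions stayed called without any 1 of the 7 libraries, with adjusted p up to 0.0408 (limma), but they had been chosen as the largest called changes. They were named from 178 called rises above the median level, in order of size.

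The strongest falls were short regions with few reads in Late. Region chr3:146926536-146926631, 95 bases long, had 4.07, 3.30 and 3.88 RPKM in Early and 0.227, 0.685, 1.33 and 1.12 RPKM in Late, which are 17 to 21 and 1 to 6 reads. Basal was level with Early, at 3.49 to 3.69 RPKM, and Reactivated, at 0.970 to 2.13 RPKM, overlapped Late (log2 fold change of Late against Early -1.74 ± 0.28 SE, limma, adjusted p = 0.00590). The largest fall, at chr2:109778902-109779010 (108 bases), was from 5.63, 3.24 and 4.61 RPKM to 1.40, 0.602, 0.586 and 1.38 RPKM (log2 fold change -1.77 ± 0.29 SE, limma, adjusted p = 0.00666). Basal, at 2.05 to 4.61 RPKM, overlapped Early, and Reactivated, at 0.658 to 1.37 RPKM, overlapped Late. These 2 falls stayed called without any 1 library but were lost with voom weights on the recovered reads.

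A fall at a region of high level was found at chr4:20118982-20119116 (134 bases). Early had 25.3, 15.0 and 20.5 RPKM, Late 6.59, 6.63, 7.25 and 4.61 RPKM, Basal 18.7 to 26.1 RPKM and Reactivated 11.6 to 23.3 RPKM. Late was thus below all 10 other libraries (log2 fold change -1.60 ± 0.34 SE, limma, adjusted p = 0.0324). The call was kept only without Early replicate 2 and lost without any other single library of the 2 groups (adjusted p up to 0.159). The lower ceiling of the Late libraries, whose highest kept value was 10.7 to 15.0 RPKM against 23.5 to 33.7 RPKM in Early, goes in the same direction, and its part was not tested. The other 5 falls of the list, chr13:77437264-77437370, chr1:17728087-17728219, chr13:102127204-102127328, chr10:95664718-95664838 and chr2:45400262-45400474, had log2 fold changes of -1.74 to -1.64. They kept their call in 3 to 5 of the 7 cases with 1 library left out, and the first missed the threshold after division by the median (adjusted p = 0.0502). The 8 falls came from 64 called falls above the median level.

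Among wide regions, calls were few and closer to the threshold. The widest region called higher, chr7:5011878-5014325 (2447 bases), had 0.497, 0.746 and 0.708 RPKM in Early and 1.61, 2.49, 1.45 and 2.33 RPKM in Late, from 66 to 99 and 168 to 281 reads. Basal (1.41 to 2.09 RPKM) and Reactivated (1.00 to 2.16 RPKM) were above Early in every library (log2 fold change 1.09 ± 0.24 SE, limma, adjusted p = 0.0462). A second wide region of chromosome 7, chr7:26539320-26541417 (2097 bases), had 0.457, 1.00 and 0.835 RPKM in Early and 2.62, 2.83, 2.34 and 2.40 RPKM in Late (1.29 ± 0.23 SE on the log2 scale, limma, adjusted p = 0.0116). In both, Early was below all 11 other libraries. At chr19:5792790-5795154 (2364 bases) Early had 0.359, 0.748 and 0.624 RPKM and Late 1.56, 2.07, 1.41 and 1.42 RPKM (log2 fold change 0.98 ± 0.21 SE, limma, adjusted p = 0.0367). Basal, at 0.608 to 1.01 RPKM, was near Early there, and Reactivated, at 1.37 to 1.79 RPKM, was level with Late.

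The widest falls were narrower. Region chr14:86604295-86605696 (1401 bases) had 1.78, 1.12 and 1.32 RPKM in Early and 0.630, 0.418, 0.527 and 0.516 RPKM in Late (-0.88 ± 0.19 SE on the log2 scale, limma, adjusted p = 0.0408). Its Basal libraries, at 1.30 to 1.55 RPKM, lay with Early and its Reactivated ones, at 0.631 to 0.750 RPKM, close to Late. The next, chr14:102727712-102728523 (811 bases) and chr2:17018948-17019716 (768 bases), had log2 fold changes of -0.87 and -0.96, again with Basal near Early and Reactivated near Late. Of these 6 wide regions, 5 kept their call only without Early replicate 2, with adjusted p up to 0.148 otherwise, and chr7:26539320-26541417 lost it without Early replicate 1, Early replicate 3 or Late replicate 2 (up to 0.0573).

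After division by the library median, the 4 largest rises and 4 largest falls not named yet were taken. All 8 were also called as deposited (limma, adjusted p up to 0.0325). The rises chr7:54094237-54094635 and chr7:13063452-13064117 had log2 fold changes of 1.59 and 1.57 on that scale (limma, adjusted p = 0.00365 for both). At the second, Early had 0.416, 0.637 and 0.277 RPKM, Late 2.75, 3.00, 2.13 and 1.79 RPKM, and the 7 other libraries 1.27 to 1.55 RPKM, between the groups. The 2 other rises were chr11:70338630-70338994 and chr4:149996067-149996263, with 1.55 each. At the first of these Early spread from 0.101 to 1.72 RPKM, and the deposited call was lost without 5 of the 7 libraries, those other than Early replicate 2 and Late replicate 1 (adjusted p up to 0.129). The falls were chr6:38092693-38092869, chr2:62739532-62739661, chr14:103088880-103089014 and chr6:102684846-102685011, at -1.64 to -1.52. The last had 3.24, 2.12 and 2.46 RPKM in Early and 0.653, 0.788, 0.384 and 0.645 RPKM in Late, and it was the only 1 of these 4 to keep its deposited call without each library in turn.

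By width, most falls were short. Of the 168 regions called lower, 157 (93.5%) were under 500 bases, of the 524 called higher 300 (57.3%), and of all kept regions 47.0%. After division by the median 54.5% of the lower calls were that short, since 104 regions from 1000 to below 2000 bases and 31 of 2000 or more were then called lower (1 and 0 as deposited). Over 21 alternative settings the share of lower calls under 500 bases was between 43.0%, with median-of-ratios scaling, and 100%. The median log2 fold change was -0.12 for the 13313 regions under 200 bases, -0.00 for the 67470 regions from 200 to below 500, 0.06 for the 60288 from 500 to below 1000, 0.05 for the 28360 from 1000 to below 2000 and -0.02 for the 2579 of 2000 or more. The depth of the classes differed, from a median of 11 to 16 reads per library under 200 bases to 157 to 299 from 2000 bases on.

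To compare libraries, the median of a class was taken relative to the median of all kept regions in the same library, on log2 values centred over the 14 libraries. Regions under 200 bases stood at 0.214, -0.152 and 0.066 in Early and at -0.080, -0.101, -0.119 and -0.077 in Late. Early libraries lay on both sides of Late, so the difference of -0.137 was within the spread of Early (exact permutation p = 0.286). No width class separated the 2 groups.

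By spacing, the difference over the kept regions grew with distance to the nearest other region of the table. Without the filter on low values that growth did not reach the widest gaps. The share called higher was 0.214% of the 31330 regions with a neighbour within 1 kb, 0.251% at 1 to 5 kb, 0.342% at 5 to 20 kb, 0.855% (68 of 7957) at 20 to 100 kb and 7.87% (7 of 89) from 100 kb on, beside 0.305% of all regions. Regions 20 to 100 kb from a neighbour stood at -0.143, 0.040 and -0.057 in Early and 0.052, 0.081, 0.058 and 0.076 in Late, without overlap. Their difference was 0.12 (exact permutation p = 0.0571, adjusted over 45 classes 0.151), and 0.104 with chromosome 7 left out, where the ranges overlapped (-0.122 to 0.067 in Early, 0.057 to 0.081 in Late). It was 0.075 without Early replicate 1. The 89 most isolated regions stood at -0.227, 0.075 and -0.183 in Early and 0.130 to 0.241 in Late. That difference was 0.316 (p = 0.0571, adjusted 0.151, exact permutation test), or 0.259 over the 66 not on chromosome 7, whose ranges overlapped (-0.203 to 0.194 in Early, 0.118 to 0.255 in Late). Without the filter on low values it was 0.021, below the 0.091 then found at 20 to 100 kb. In both classes Early replicate 2 was the Early library nearest to Late. The 78834 regions at 1 to 5 kb also did not overlap but went the other way, from 0.004 to 0.010 in Early to between -0.0063 and -0.0003 in Late.

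By level, the deposited values had more rises in the weakest class than in any other. Level was taken from the Basal and Reactivated libraries, which are in neither compared group. The filter, however, used the mean of all 14 libraries (at least 0.83 RPKM). Regions low in Basal and Reactivated could thus be kept through high Early or Late values. The part of this in the rises of the lowest quintile was not tested. Regions were divided into quintiles. In the lowest quintile 235 were called higher and 14 lower (44.8% of all rises), in the highest quintile 62 and 27. After division by the median the rises were more even, with 244 higher and 19 lower in the lowest quintile and 221 higher and 220 lower in the highest. Relative to all regions the highest quintile stood at -0.225, 0.053 and -0.028 in Early and at -0.137, -0.096, -0.123 and -0.103 in Late, a difference of -0.048 (exact permutation p = 0.571). Its sign turned under quantile normalization and without Early replicate 2. No level class separated the groups.

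**Figure D3:**
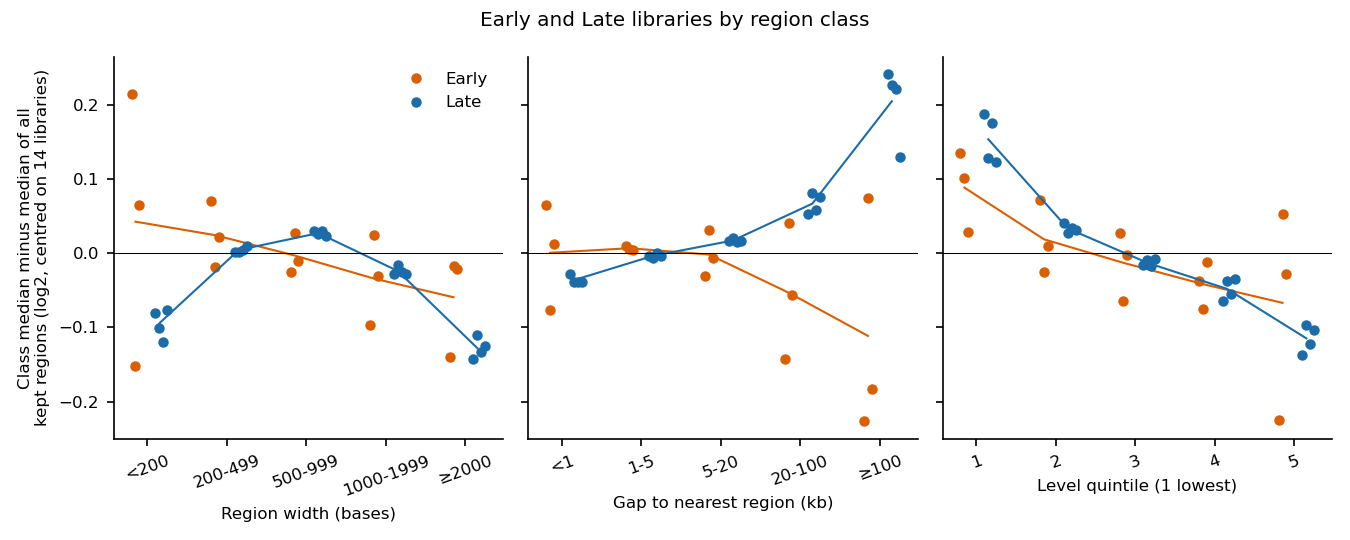
Each point is the median of a class of regions in 1 library minus the median of all kept regions in that library (log2, centred over 14 libraries), by region width (left), gap to the nearest region (middle) and quintile of level (right), for Early (orange) and Late (blue), with lines through group means. The Late points lie close together, the Early points scatter, and Late lies above Early without overlap at gaps of 20 to 100 kb and of 100 kb or more, and below it, by 0.010, at 1 to 5 kb.

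By position, chromosome 7 stood out. Of its 3422 kept regions (1.99% of all) 148 were called higher and 0 lower in Late, that is 4.32% against 0.305% of all regions, and it held 28.2% of all rises. After division by the median it had 241 rises and 0 falls. Relative to all regions, chromosome 7 stood at -0.351, -0.372 and -0.196 in the Early libraries and at -0.074, 0.056, -0.077 and 0.037 in the Late libraries. The groups did not overlap, and the difference was 0.292 (exact permutation p = 0.0571, adjusted over 45 classes 0.151). Basal averaged 0.176 and Reactivated 0.100, so Early was the low group. Without Early replicate 1, 2 or 3 chromosome 7 had 31, 589 or 40 rises, and without Late replicate 1, 2, 3 or 4 it had 82, 41, 73 or 54. Its share of all rises ranged over 21 alternative settings from 6.89%, without Early replicate 2, to 50.0%, among the regions with a mean of at least 2 RPKM, and at most 2 of its regions were called lower.

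Chromosomes 17 and 16 differed the same way by less. Chromosome 17 (3476 regions) had 29 rises and 0 falls and stood at -0.235, -0.152 and -0.153 in Early against -0.035, 0.045, -0.015 and 0.030 in Late, a difference of 0.186. Chromosome 16 had 28 rises and 0 falls and a difference of 0.12. At the other end, chromosome 3 (14455 regions) had 13 rises and 20 falls and stood at 0.110, 0.020 and 0.058 in Early and -0.007, -0.046, -0.013 and -0.039 in Late, a difference of -0.089. Late lay above Early without overlap on 6 of 20 chromosomes and below it on 5, each with the smallest exact permutation p of 0.0571 (adjusted 0.151). Chromosome X stood at -0.160, 0.299 and -0.047 in Early and 0.159, 0.099, 0.172 and 0.083 in Late. Early replicate 2 was above and the other Early libraries below all Late libraries, so no difference was shown there (0.098, exact permutation p = 0.400).

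**Figure D4:**
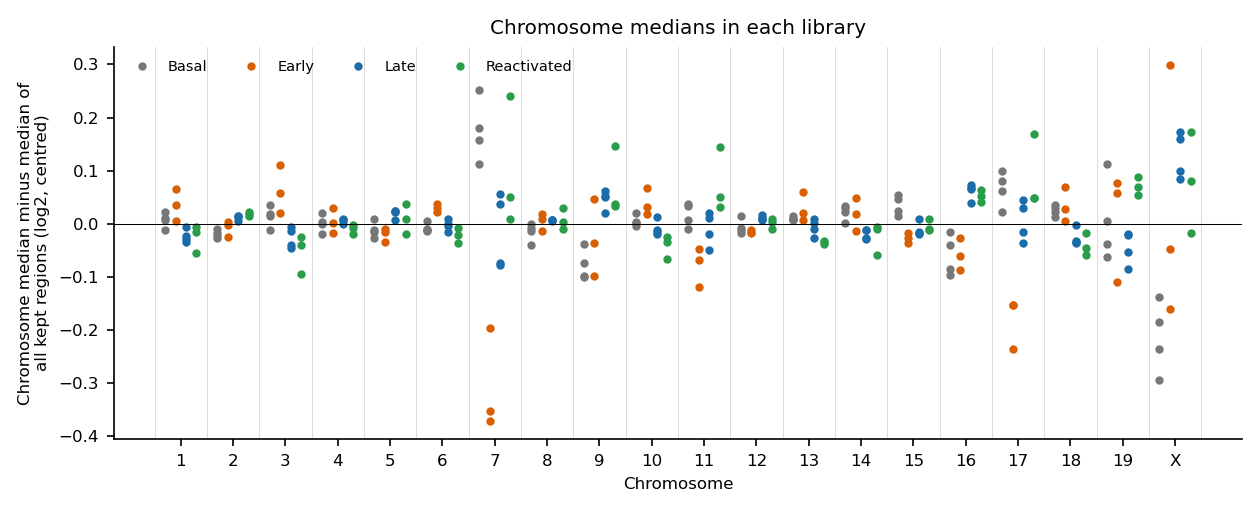
Each point is the median of 1 chromosome in 1 library minus the median of all kept regions in that library (log2, centred over 14 libraries), coloured by group. On chromosome 7 the 3 Early libraries lie at -0.372 to -0.196, below every other library, and on chromosome X the Early libraries spread from -0.160 to 0.299.

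On chromosome 7 the difference was largest in its first 55 Mb, a boundary chosen with these values known. Of the 653 regions there (0.380% of those kept) 99 were called higher (15.2%) and 0 lower, and in 416 (63.7%, against 5.21% of all regions) every Late library exceeded every Early library. Their median was 0.563, 0.908 and 0.774 RPKM in Early and 1.41, 1.87, 1.49 and 1.68 RPKM in Late. Basal had 1.33 to 1.90 RPKM and Reactivated 1.50 to 2.20 RPKM, both overlapping Late, so the Early libraries lay below all 11 others. Relative to all regions Early replicate 2 was the lowest library here, at -0.799, with replicates 1 and 3 at -0.592 and -0.552, although it was the highest of all libraries over the genome. The Late libraries stood at -0.011, 0.226, -0.062 and 0.103. The median log2 fold change was 0.75 as deposited, 0.70 after division by the median, and 0.57 to 1.11 over the 21 alternatives. In the other 2769 regions of the chromosome it was 0.23, with 49 rises and 0 falls.

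Windows of 5 Mb with at least 20 kept regions showed the same along the chromosome. All 30 windows of chromosome 7 had a median above 0, and the 10 within the first 55 Mb had medians of 0.45 to 0.99, against 0.06 to 0.80 in the 20 beyond. In 21 of the 30 every Late library was above every Early library relative to all regions, against 154 of all 532 windows. Of the 20 windows with the highest medians 11 lay on chromosome 7 and 2 on chromosome 17. The highest was at 10 to 15 Mb of chromosome 7, with 25 regions, a median of 0.99 (0.92 after division) and 10 rises. The lowest after division was at 10 to 15 Mb of chromosome 18, with 626 regions, a median of -0.202 (-0.255 after division) and 3 falls. The window at 130 to 135 Mb of chromosome 3, among the lowest, had 662 regions, a median of -0.193 (-0.252 after division) and no call. Also among the lowest was 120 to 125 Mb of chromosome 13, with 32 regions, a median of -0.206 (-0.250 after division) and no call. The last region of that chromosome ends at base 120284281, so this window is covered only at its start.

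The difference between Late and Early went with how densely the regions lie. Chromosome 7 had the fewest regions of the table per Mb (26.0) and chromosome 3 the most (99.6), and across 20 chromosomes the relative difference fell with density (Spearman rho = -0.832, Pearson r = -0.851, and rho = -0.773 over 18 without chromosomes 7 and 17). These are descriptions: all chromosomes were measured in the same 7 libraries, and density was taken from the deposited region list, and the sources used here do not say which libraries that list was made from. Chromosome X, with 27.2 regions per Mb, had a smaller difference (0.098) than chromosome 17, with 42.1. Chromosome 19, with 55.9 regions per Mb, had -0.053, where chromosome 16, with 56.4, had 0.12. Windows of 5 Mb gave the same sign (rho = -0.694 over 532, and -0.662 over the 502 not on chromosome 7).

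Sorted into quintiles by the number of kept regions, the sparsest windows (24 to 173 regions) held 10802 regions, of which 212 (1.96%) were called higher and 3 lower. The densest (471 to 672 regions) held 56682, of which 63 (0.111%) were higher and 80 lower. The share called higher fell through the quintiles between them, from 0.417% to 0.214% to 0.158%. Without chromosome 7 the sparsest quintile still had 77 rises in 8273 regions (0.931%). Relative to all regions, the sparsest quintile stood at -0.254, -0.130 and -0.175 in Early and at 0.011, 0.087, 0.017 and 0.062 in Late, and the densest at 0.107, 0.041 and 0.056 in Early and at 0.010, -0.036, -0.006 and -0.032 in Late. The Early libraries thus varied with density more than the Late ones, and Basal averaged 0.033 in the sparsest and 0.008 in the densest quintile. Reactivated ran from 0.095 to -0.062. Width and level were similar across these windows, with median widths of 509 to 538.5 bases and median RPKM of 1.34 to 1.39. These quintiles were chosen after their values were seen and were given no test.

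**Figure D5:**
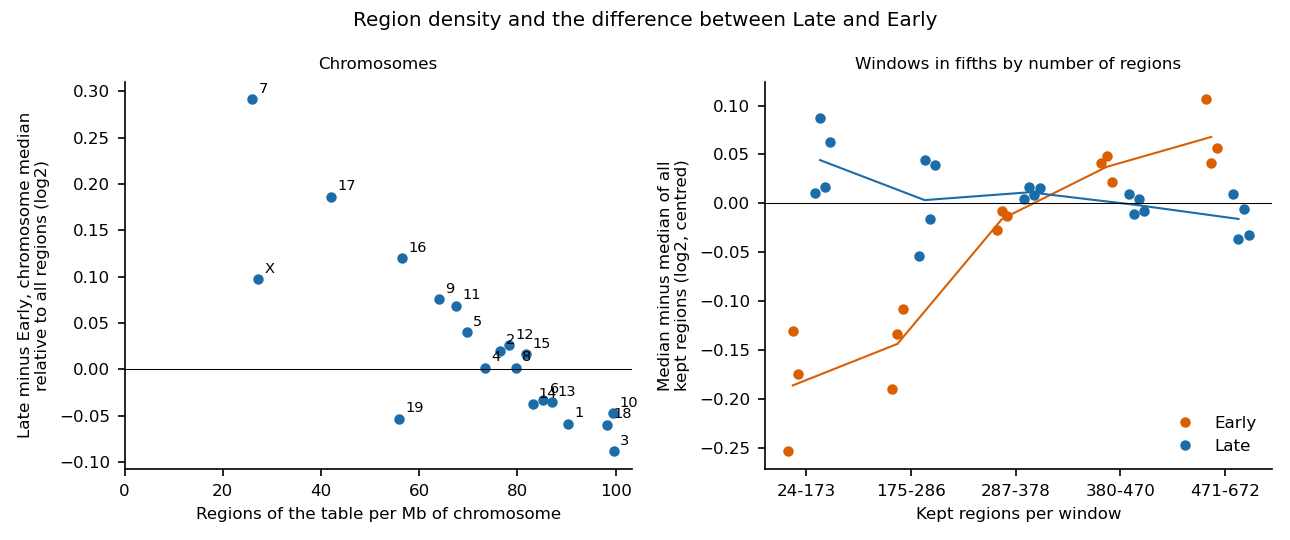
Left, Late minus Early for the median of each chromosome relative to all regions (log2) against the number of regions of the table per Mb, 1 labelled point per chromosome. Right, the relative median in each Early (orange) and Late (blue) library over windows of 5 Mb sorted into quintiles by their number of kept regions, with lines through group means. The difference runs from 0.292 on chromosome 7 to -0.089 on chromosome 3, and the Early lines cross from below Late to above it as windows get denser.

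The median distance from a rise to the nearest other rise was 812902 bases. Of the 524 regions called higher 73 (13.9%) had another rise within 50 kb, or 27 of 376 (7.18%) with chromosome 7 left out, and of the 168 called lower 4 (2.38%) had another fall. Of 46 pairs of neighbouring calls within 50 kb 45 had the same direction. Of all kept regions 99.2% had another kept region within 50 kb. The lists differ in size, so these shares are not compared. Whether rises or falls lie closer together than other regions was not tested. In 10 equal stretches from start to end the median log2 fold change ran from -0.02 to 0.07, and the relative difference was at most 0.050 in size, against 0.292 on chromosome 7. Late and Early did not overlap in 3 of these stretches (exact permutation p = 0.0571, adjusted 0.151). Without chromosome 7 the relative difference was -0.048 in the first stretch and 0.048 in the last.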

How the data were processed

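ATAC-seq of sorted hippocampal neuronal nuclei was analysed from 1 table of RPKM values that the authors deposited for 191271 regions and 14 libraries. The mm9 build and the tools Bowtie2 2.0, SAMtools, MACS2, DiffBind 1.16.327 and DESeq2 appear, per the submitters' processing notes, without role or order. Not given in the sources used here is whether regions come from pooled reads or from single libraries, and how duplicate reads, cut positions and read totals were treated. Such steps can affect region borders and the values of high regions, and their part here was not tested. The sources do not say either if starts count from 0 or from 1, and positions are printed as deposited.

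Multiplied by region length, 100% of the deposited RPKM values were whole multiples of 1 step per library (tolerance 0.01), which gave reads and totals. No value was 0: kept regions at 1 read, the floor, made up 0.0628% to 0.144% of each Early and 0.105% to 0.136% of each Late library. The median per kept region was 30 to 52 reads in Early and 33 to 37 in Late. For the percentage of a library's reads that lie in regions, 95% Wilson intervals reached at most 0.0119 points to each side, for counting error only. The mean chi-square between replicates (1 for sampling noise alone) was 1.76 to 1.99 in Late and 3.33 to 6.78 in Early. A value above 1 can also come from separate preparations of 1 pool. The Late libraries were counted as 4 samples as the labels list them.

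Values were analysed as log2(RPKM + 0.5), which understates changes of low regions. All 14 libraries entered 1 limma fit (limma 3.58.1, R 4.3.3, group means, intensity trend, robust), since groups of 3 and 4 give few degrees of freedom; Early, with the larger spread, and Late then share 1 estimate. Tests were 2-sided with Benjamini-Hochberg adjustment over all 172010 regions and a threshold of 0.05. The fit was repeated with each column divided by its median, and checked on simulated data. Alternatives were other scalings, pseudocounts and filters, voom weights on recovered reads, a covariate, a replicate block, fewer or averaged libraries and each library left out in turn. Library measures and class medians were compared by exact permutation tests, adjusted over 4 measures and 45 classes. Errors are SD over libraries, or limma's standard errors for fold changes. Other steps used Python 3.11.15 (scipy 1.17.1, numpy 2.4.6, statsmodels 0.14.6, pandas 2.3.3).

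Named regions were the 8 largest called rises and the 8 largest called falls without overlap between groups and above the median level, the 3 widest called each way, and 4 further rises and 4 falls after division by the median. The regions kept, the classes, the lists and the tests were chosen with earlier results of these data known.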

Additional observations from a re-analysis of the deposited data

Results flagged for a closer look

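Of 113 groups of 4 libraries tested for a value far from the others, 7 had one, where chance gives about 1 in 20 (5%). Among the named regions all 3 such values were in Basal. At chr1:179105618-179105881 the highest Basal library had 2.24 RPKM and the next 1.19 RPKM. At chr3:146926536-146926631 the lowest had 3.49 RPKM, but the next was 3.69 RPKM, and the gap is large only beside 3 nearly equal values. At chr11:70338630-70338994 the lowest had 1.01 RPKM and the next 1.82 RPKM.

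The other 4 were medians of classes in Late, relative to all regions. The highest Late library stood at -0.0287 for regions with a neighbour within 1 kb (the next at -0.0383) and at -0.0022 on chromosome 18 (the next at -0.0322). The lowest stood at 0.0072 on chromosome 5 (the next at 0.0227) and at 0.0045 on chromosome 8 (the next at 0.0072).

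Outside the regions compared, more than 1 read was found on 69 to 72 of the 99 chrUn_random regions in every Late library, and on 0 of them in every Early, Basal and Reactivated library.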

How the results depend on the processing

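No named region and no class that separated Late from Early changed direction under the alternatives run. The sign turned under at least 1 of them for level quintiles 2 to 5 and for some other classes with differences near 0, whose libraries overlapped. The counts of 524 higher and 168 lower regions moved much more. They were 844 and 409 after division by the median, 951 and 491 with median-of-ratios scaling, 2808 and 1237 with quantile normalization and 4622 and 2231 with each library's percentage of reads in regions as a covariate. Among regions with a mean of at least 2 RPKM they were 52 and 27, without a filter 858 higher, with voom weights 37 lower, and with the Late libraries averaged 0 and 0. With 1 library left out they ranged from 138 to 8552 and from 22 to 2277.

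After division by the median, the counts of 844 and 409 became 78 and 2 in a fit of Late and Early alone, 0 and 0 with Late averaged (4985 at an unadjusted p under 0.05, limma) and 1306 and 778 among regions with a mean of at least 20 reads, 3 alternatives added after seeing the data, as were the class values without chromosome 7. They ranged from 66 to 3103 and from 9 to 4973 with 1 library left out. The difference of chromosome 7 was 0.392 with a pseudocount of 0.1 against 0.292, as a smaller pseudocount widens low values. Chromosomes 16 and 17 likewise went to 0.156 and 0.246 with that pseudocount, and small differences of chromosome 12 and of gaps of 1 to 5 kb moved too. Without the filter on low values the difference at gaps of 100 kb or more was 0.021 against 0.316, and the cause was not tested. With 1 library left out, the difference in median RPKM ran from -0.131 without Early replicate 1 to 0.258 without Early replicate 2. That in reads in regions ran from -3.79 to 3.19 percentage points in the same 2 cases. The level passed by the top 1% of regions, in units of the library median, stayed lower in Late on average (-1.27 to -0.659). So did the interquartile range (-0.120 to -0.00997).

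Same-numbered libraries of different groups did not deviate together (r = -0.0296 to 0.0465, other numbers -0.0720 to 0.0860), so no pairing by replicate number was shown. Such correlations cannot tell whether same-numbered libraries shared a day or a pool. A replicate block gave 238 higher and 75 lower regions, and with division by the median 85 and 12. Of 991 alternative values of called results at the 30 named regions 676 kept their call, 315 lost it and 0 changed sign. At 7 to 8 reads per Late library in the median fall, depth limits how far falls can be measured.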
